A study of Mus musculus with 16 samples.

Results

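The gene set described here is the lysosome and autophagy genes of the mouse kidney. Its 44 members were taken from the deposited expression table by gene symbol and are 44 of the 46078 genes listed there. They comprised 27 genes of the lysosome, 14 genes of autophagy and 3 genes for the transcription factors Tfeb, Tfe3 and Mitf. All 44 passed the filter on low values, which kept 15014 genes with at least 1 TPM (a transcript level that accounts for gene length and sums to 1000000 in each library) in at least 4 libraries. Smpdl3b passed it only through libraries of cisplatin-treated mice and so had to differ between groups. It stays in the counts of calls, in the positions and in the lysosome means below. Kidneys of C57BL/6 mice aged 20 weeks were compared in 4 groups of 4 libraries each. The first group received a vehicle of 0.9% sodium chloride and no preconditioning. The second received intraperitoneal cisplatin, a platinum drug that injures the kidney tubule, and no preconditioning. The third received cisplatin after calorie restriction during the 4 weeks before the injection. The fourth received cisplatin after hypoxia of 2, 4 and 8 h on 3 days. All kidneys were perfused and taken 72 h after the injection. No group combined a preconditioning with the vehicle, so an effect of calorie restriction or hypoxia by itself could not be read. The labels do not say that the libraries of a group came from separate mice, so p-values measure the spread between these libraries only.

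Lysosomes are acidic compartments in which proteases, glycosidases and lipases break down proteins, glycans and lipids. Autophagy delivers part of the cytoplasm to them: a double membrane, tagged with proteins of the LC3 and GABARAP families, closes around the cargo and fuses with a lysosome. Tfeb, Tfe3 and Mitf are related transcription factors that activate many lysosome and autophagy genes. Proximal tubule cells reabsorb filtered protein by endocytosis and are rich in lysosomes, and they also take up cisplatin.

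These factors bind the hexamer CACGTG, which reads the same on both strands. It was searched in 300-base windows, from 250 bases before to 50 bases after each gene start, taken from RefSeq on GRCm38.p6. Windows matched 37 of the 44 members. Those unmatched were Npc1, Map1lc3a, Becn1, Asah1, Ctsh, Ctsb and Atg16l1. The hexamer was present in 12 of the 37 (32.4%), against 8.09% of the 27025 genes with a window and 11.9% of the 9600 tested genes with one. By group it was found in 10 of 23 lysosome members and in 2 of 11 autophagy members, Atg5 and Atg7. The longer form TCACGTGA, which always contains the hexamer, was present in 4 of 37 members, against 1.12% of the genes with a window and 2.18% of the tested genes with one. Those 4 were Ctsd, Gla, Ctsa and Mcoln1. Lamp1 held 4 copies of the shorter form. The 250 bases before the start are printed for these 5 genes because they share the hexamer and yet moved in different directions after cisplatin. They are given 5′ to 3′ on the strand of the gene, with CACGTG in capitals.
Ctsd (chr7:142387828-142388077, minus strand): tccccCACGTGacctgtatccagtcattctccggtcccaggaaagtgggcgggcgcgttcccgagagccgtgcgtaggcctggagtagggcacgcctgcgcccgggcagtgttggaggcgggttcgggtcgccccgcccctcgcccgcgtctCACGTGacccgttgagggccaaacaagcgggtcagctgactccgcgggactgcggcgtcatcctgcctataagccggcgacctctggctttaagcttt
Gla (chrX:134601006-134601255, minus strand): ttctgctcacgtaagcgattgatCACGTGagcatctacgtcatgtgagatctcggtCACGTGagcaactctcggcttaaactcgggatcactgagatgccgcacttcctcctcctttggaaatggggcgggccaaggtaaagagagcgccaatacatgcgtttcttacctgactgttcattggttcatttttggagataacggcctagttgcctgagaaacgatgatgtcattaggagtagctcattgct
Ctsa (chr2:164833523-164833772, plus strand): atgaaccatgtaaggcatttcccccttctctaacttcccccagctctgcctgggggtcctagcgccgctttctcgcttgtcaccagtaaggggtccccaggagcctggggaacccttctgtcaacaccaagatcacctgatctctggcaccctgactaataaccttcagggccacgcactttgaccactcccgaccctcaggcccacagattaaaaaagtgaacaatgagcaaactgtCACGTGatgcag
Mcoln1 (chr8:3500269-3500518, plus strand): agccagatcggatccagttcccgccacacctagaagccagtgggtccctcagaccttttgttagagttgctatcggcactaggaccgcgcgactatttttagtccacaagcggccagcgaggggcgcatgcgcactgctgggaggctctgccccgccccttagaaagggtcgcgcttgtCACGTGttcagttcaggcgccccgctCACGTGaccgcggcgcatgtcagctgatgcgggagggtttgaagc
Lamp1 (chr8:13158911-13159160, plus strand): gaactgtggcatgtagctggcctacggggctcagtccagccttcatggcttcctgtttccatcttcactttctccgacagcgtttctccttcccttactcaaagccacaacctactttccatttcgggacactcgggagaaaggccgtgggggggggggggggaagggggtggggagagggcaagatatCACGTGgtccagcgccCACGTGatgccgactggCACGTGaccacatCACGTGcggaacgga
The copies began 245 and 98 bases before the start of Ctsd, 227 and 194 before that of Gla, and 71 and 45 before that of Mcoln1. In Lamp1 they began 61, 45, 28 and 15 bases before the start. The window shown for Ctsa held a copy 12 bases before the start, while its other RefSeq window held none. Among members called higher after cisplatin 4 of 12 with a window held the hexamer, among those called lower 7 of 18, and among those not called 1 of 7. A match describes letters in a window and shows no binding.

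Depth and composition bear on all values that follow. The libraries held 54194365 to 69010084 reads, recovered from the steps of the low values. All 4 cisplatin-alone libraries and the first calorie restriction library carried one title prefix, and the other 11 carried another, so no saline or hypoxia library shares a prefix with the cisplatin-alone libraries. A prefix term can therefore rest on that 1 calorie restriction library alone. The 4 hypoxia libraries differed widely among themselves. Hypoxia library 4 and calorie restriction library 4 were the closest of all 120 pairs of libraries (SD of the log2 difference over tested genes 0.176, next pair 0.213), so hypoxia counts and tests are given with and without library 4. Whether a label was exchanged was not tested. The summed level of 15 proximal tubule markers was 5684 to 6279 TPM in saline libraries, 656 to 1109 after cisplatin alone and 5485 to 6149 after calorie restriction plus cisplatin. In hypoxia libraries 1 to 4 it was 976, 4856, 3142 and 5952 TPM. Markers of other kidney cells moved the same way: 14 of them summed to 1607 to 2632 TPM after saline and 358 to 646 TPM after cisplatin, with 10 lower and 0 higher. The 19 macrophage markers summed to 83.8 to 102 TPM after saline and 82.8 to 128 TPM after cisplatin. The 6 neutrophil markers summed to 0.378 to 0.548 TPM and 5.60 to 8.04 TPM. Of the tested macrophage markers 2 rose and 3 fell among 13. No marker of these lists was at 0 in every library, though Ly6g and Mpo, which define neutrophils, were at 0 in all saline libraries. The part of these shifts in the members' results was not tested. In whole-kidney RNA, fewer cells of a type and less RNA per cell cannot be told apart.

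Cisplatin moved the members in both directions. Against saline, 33 of the 44 members passed the test (limma on log2(TPM + 1), adjusted p under 0.05), 14 higher and 19 lower, where 66.8% of all tested genes passed. By direction, 38.0% of all tested genes rose and 28.8% fell. In each of the 33 except Atg5 the lowest library of the higher group lay above the highest of the lower group, as it did for Map1lc3a, which missed the threshold. Over all tested genes the groups were separated in 63.5%. The median log2 difference was -0.16 over the members and 0.08 over all tested genes. Another scaling, which left out mitochondrial genes, genes of red cells and the top 10 genes by level, moved the median of all genes by 0.16 on the log2 scale. Relative to that median the members' median was -0.25 before and -0.27 after, and the calls became 16 higher and 17 lower. The shares of all tested genes called with that scaling are not given, so this split has no background to be read against. With the title prefix as a term, where 22.7% of all tested genes passed, 15 of the 33 calls held: Tfe3, Ctsb, Ctsd, Gla, Smpdl3b and Optn higher, and Lamp1, Ctsa, Ctsh, Glb1, Neu1, Gaa, Lipa, Smpd1 and Pink1 lower. These counts include Smpdl3b, whose difference was fixed by the filter.

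**Figure D1:**
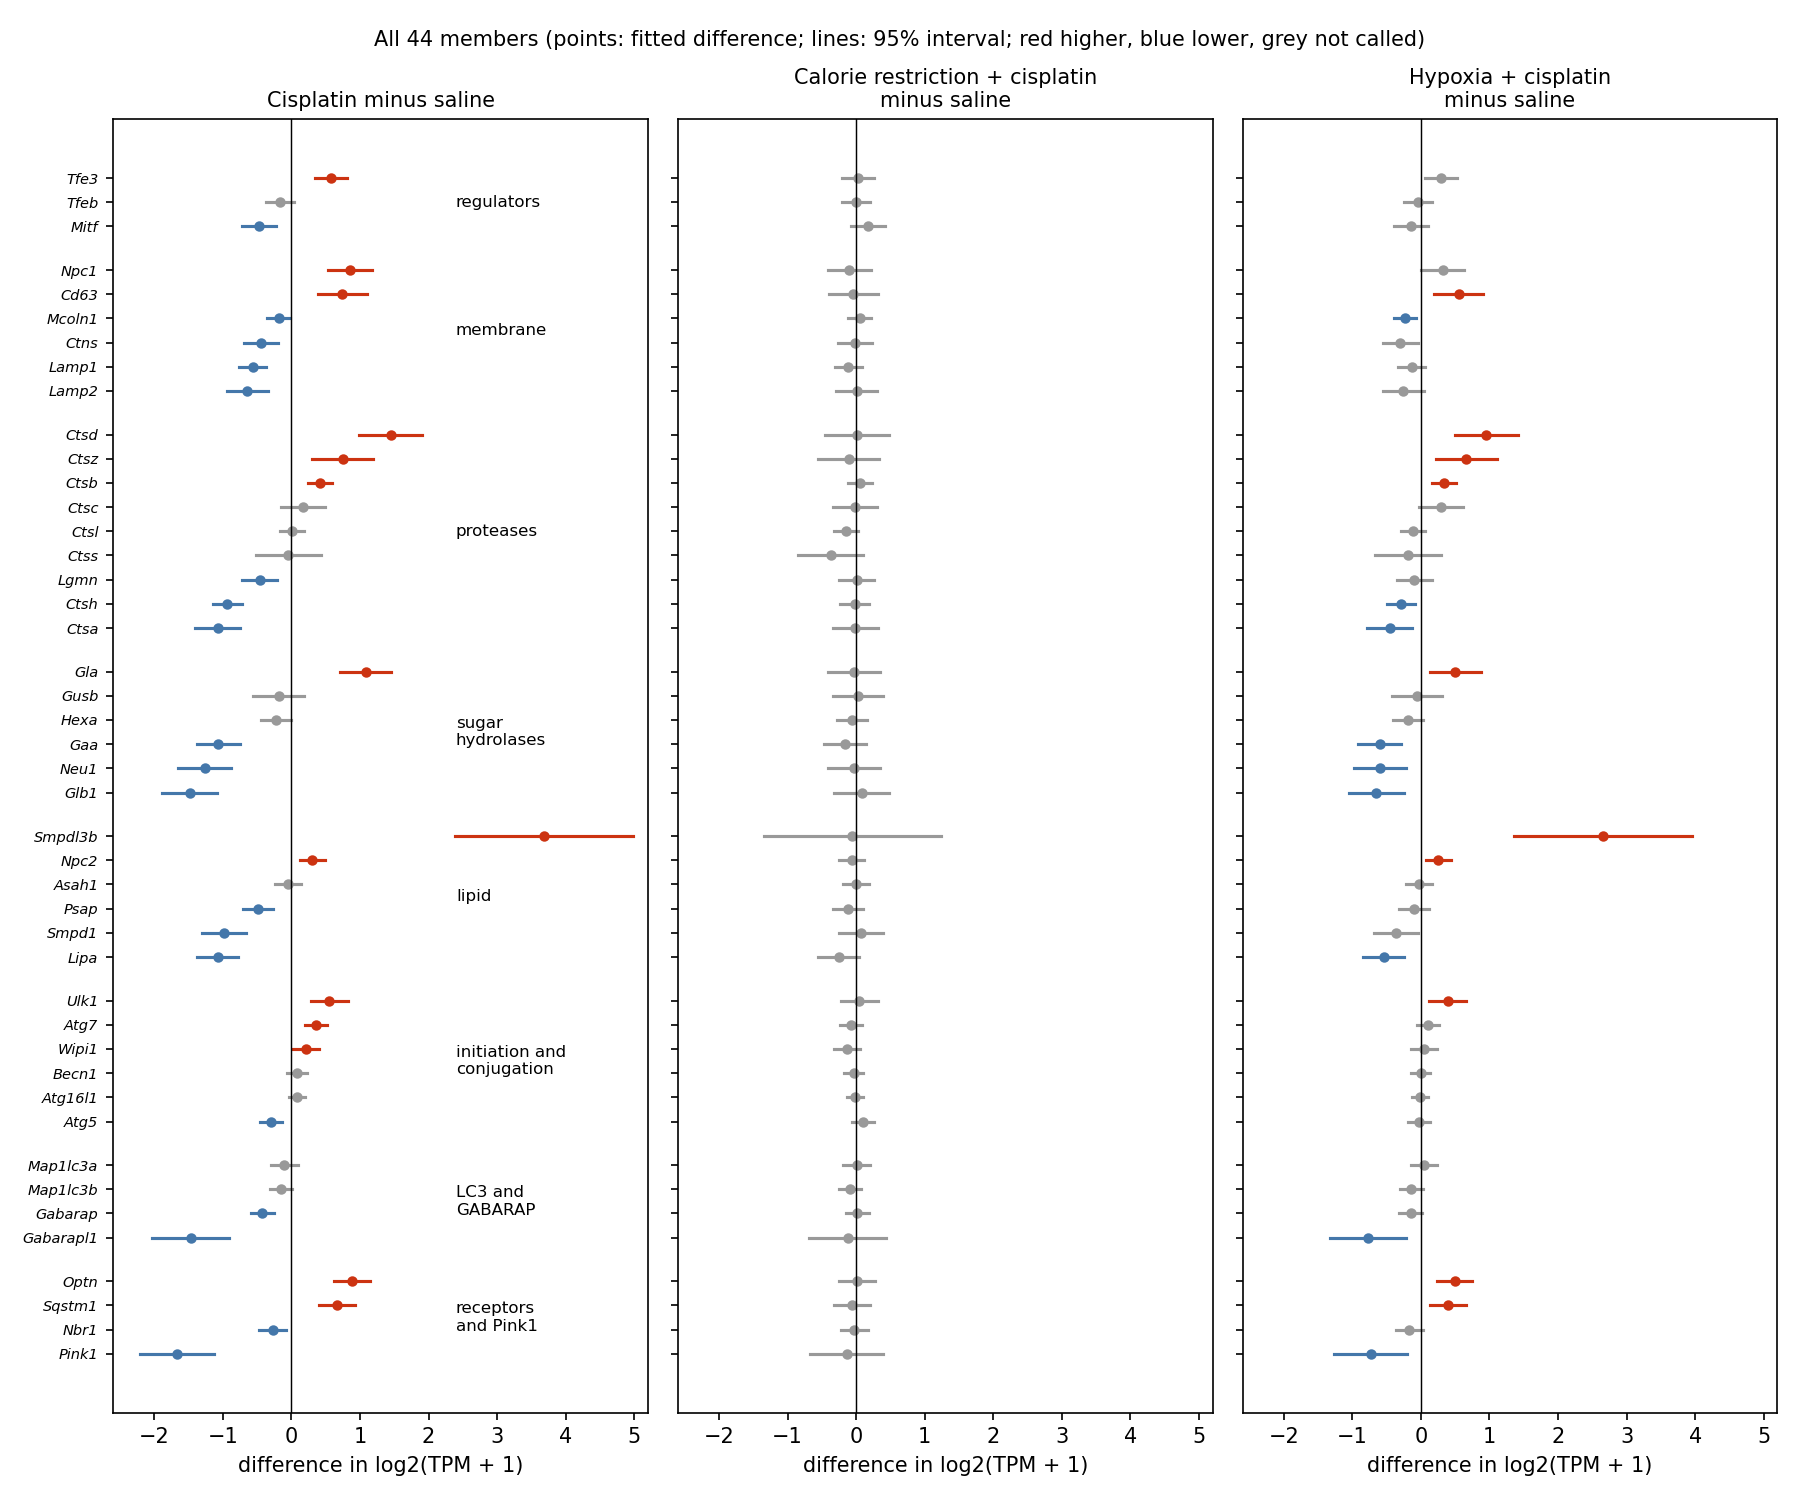
Fitted difference in log2(TPM + 1) from saline for the 44 members, ordered by role, in 3 comparisons; points are estimates from 4 libraries per group and lines their 95% intervals, with red for higher, blue for lower and grey for not called. After cisplatin alone 14 members are red and 19 blue, after calorie restriction plus cisplatin none is coloured, and after hypoxia plus cisplatin 10 are red and 9 blue.

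The 3 transcription factors did not move together. Tfe3 measured 2.70, 2.32, 2.59 and 2.48 TPM in the saline libraries and 4.33, 3.81, 4.29 and 4.68 TPM after cisplatin, a rise of 0.58 ± 0.11 (SE) on the log2 scale (limma adjusted p = 0.000343). Mitf went the other way, from 3.99, 3.57, 4.13 and 3.05 TPM to 2.31, 2.05, 2.28 and 2.90 TPM, a log2 difference of -0.47 ± 0.11 (adjusted p = 0.00243). Neither gene showed any overlap between both groups. Tfeb, the factor best known for this gene programme, measured 5.96, 5.45, 6.14 and 5.62 TPM and 4.88, 4.38, 4.35 and 6.80 TPM. Cisplatin library 4 lay above every saline library and libraries 1 to 3 below, and its log2 difference of -0.17 had a 95% interval of -0.38 to 0.03 (adjusted p = 0.128). These are transcript levels, and the location of the proteins in the cell, through which the factors are known to be controlled, was not measured.

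All 6 lysosomal membrane members passed the test, 2 higher and 4 lower. Npc1, which moves cholesterol out of the lysosome, was at 3.78, 3.44, 3.91 and 3.67 TPM after saline and 7.40, 7.73, 7.06 and 7.79 TPM after cisplatin, a log2 difference of 0.85 ± 0.15 (adjusted p = 0.000194). Cd63, a tetraspanin of late endosomes and lysosomes, rose from 209, 206, 201 and 206 TPM to 373, 331, 337 and 337 TPM (0.74 ± 0.17, adjusted p = 0.00139). Both were higher in every cisplatin library than in any saline library. The major glycoproteins of the lysosomal membrane fell instead. Lamp1 fell from 434, 459.9, 447 and 419 TPM to 307, 281, 287 and 313 TPM (-0.57 ± 0.09, adjusted p = 0.000122). Lamp2 fell from 60.7, 62.4, 59.9 and 62.0 TPM to 40.5, 34.6, 37.7 and 43.2 TPM (-0.64 ± 0.14, adjusted p = 0.00108). The cystine exporter Ctns (8.47 to 10.1 TPM after saline, 6.03 to 6.80 after cisplatin) was lower too. The calcium channel Mcoln1 was lower by 0.18, with adjusted p = 0.0468, and this call was lost with the other scaling. It was also lost without any 1 of the saline libraries, of cisplatin libraries 1, 2 and 4, of calorie restriction libraries 1 and 4 or of hypoxia libraries 2 and 3, at adjusted p = 0.0511 to 0.133.

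The 9 proteases divided into 3 higher, 3 lower and 3 not called. Ctsd, the main aspartic protease of the lysosome and the most abundant cathepsin here, measured 224, 239.6, 240.0 and 211 TPM after saline and 609, 652, 617 and 620.3 TPM after cisplatin. Its log2 difference was 1.45 ± 0.22 (adjusted p = 8.17e-05), the largest rise among the proteases. Ctsb, a cysteine protease, rose from 101, 107, 106 and 95.8 TPM to 140.3, 135, 134 and 139.6 TPM (0.42 ± 0.08, adjusted p = 0.000432). The carboxypeptidase Ctsz also rose, from 53.3 to 74.4 TPM to 98.8 to 111 TPM. For all 3 the groups were fully separated. Ctsa, the carboxypeptidase that protects beta-galactosidase and neuraminidase in a complex, fell from 51.1, 54.4, 54.7 and 54.6 TPM to 25.2, 24.1, 25.2 and 25.6 TPM (-1.07 ± 0.15, adjusted p = 6.95e-05). The aminopeptidase Ctsh fell from 29.9 to 32.5 TPM to 15.0 to 17.1 TPM. Legumain (Lgmn), an asparaginyl endopeptidase that matures other cathepsins, fell from 229.9 to 258 TPM to 164 to 199.9 TPM. Ctsl, Ctss and Ctsc had log2 differences of 0.01, -0.04 and 0.17 and overlapping groups. The interval for Ctsl was narrow, -0.17 to 0.18, while that of Ctss, an enzyme of antigen-presenting cells, was -0.52 to 0.43.

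Among the 6 sugar hydrolases 1 rose and 3 fell. Gla, the alpha-galactosidase whose loss causes Fabry disease, measured 1.54, 1.69, 1.89 and 1.46 TPM after saline and 4.72, 5.61, 4.78 and 3.52 TPM after cisplatin (1.09 ± 0.17, adjusted p = 0.000127). Glb1, the beta-galactosidase whose activity is used as a stain for senescent cells, measured 70.3, 74.5, 72.6 and 82.2 TPM and 28.3, 26.4, 24.3 and 25.9 TPM (-1.48 ± 0.19, adjusted p = 4.73e-05). Both galactosidases thus moved in opposite directions, each with separated groups. Neu1, a sialidase, and Gaa, the acid glucosidase that degrades glycogen, fell from 97.3 to 124 and 22.1 to 23.2 TPM to 40.3 to 46.7 and 9.11 to 12.4 TPM. Glb1, Neu1 and Ctsa, whose proteins form 1 complex, were therefore all lower. Hexa differed by -0.22 (adjusted p = 0.0667). Gusb differed by -0.19 (adjusted p = 0.346), with 1 saline library at 13.6 TPM beside 6.27 to 6.67 TPM in the other 3.

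Of the 6 lipid handling genes 2 were called higher and 3 lower. Smpdl3b, a membrane-anchored phosphodiesterase related to acid sphingomyelinase that is studied in podocytes, measured 0.379, 0.377, 0.550 and 0.575 TPM after saline and 18.2, 17.6, 20.2 and 15.7 TPM after cisplatin. The ratio of the means was 38.1. This is given as a description, with no test, since the gene passed the filter only through cisplatin-treated libraries. Its saline level rested on few reads, 21 in the library with the fewest. Lipa, the acid lipase, fell from 93.5, 108, 90.2 and 101 TPM to 51.6, 48.3, 48.8 and 36.5 TPM (-1.08 ± 0.14, adjusted p = 4.84e-05). Smpd1, the acid sphingomyelinase, fell from 37.7 to 43.2 TPM to 17.0 to 25.0 TPM. Psap, the precursor of the saposins that present lipids to hydrolases, fell from 573 to 705 TPM to 417 to 463 TPM. Npc2, the soluble partner of Npc1, rose from 21.3 to 22.4 TPM to 25.9 to 28.5 TPM. The cholesterol exit pair Npc1 and Npc2 was thus higher while the 2 acid hydrolases of lipids, Lipa and Smpd1, were lower. Asah1, the acid ceramidase, differed by -0.05 (95% interval -0.24 to 0.15).

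**Figure D2:**
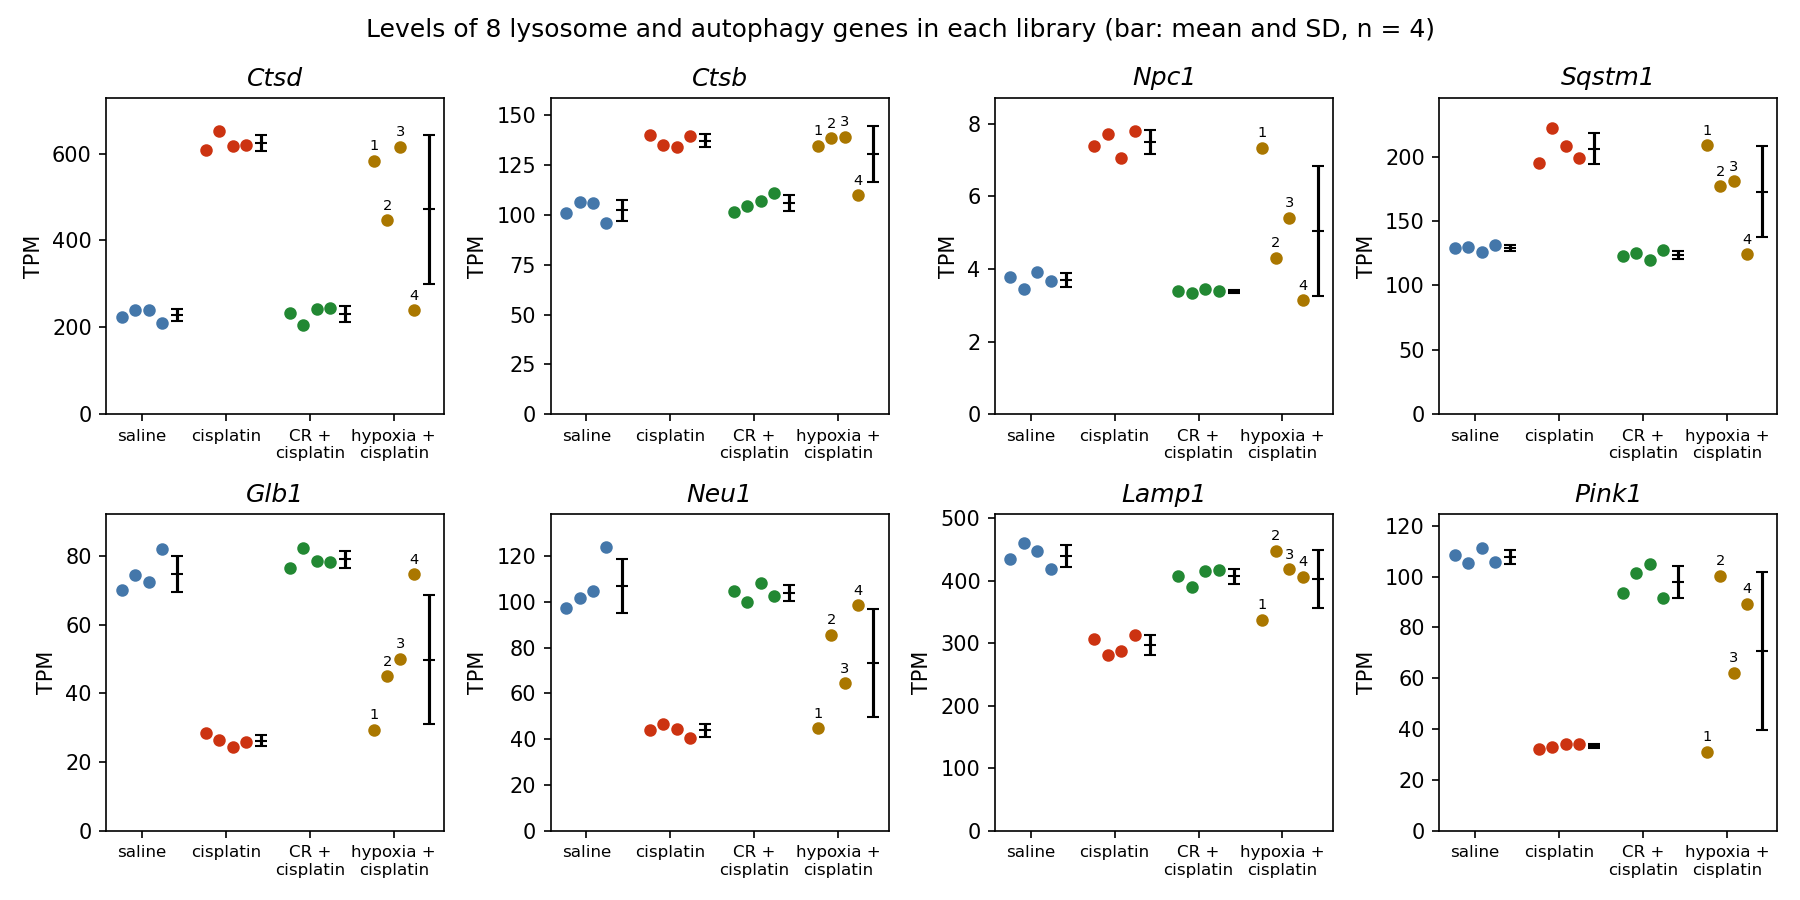
TPM of 8 members in each of the 16 libraries, with 1 panel per gene on a linear axis from 0; points are libraries, the bar beside them the group mean and SD (n = 4), and hypoxia libraries are numbered. The upper row shows genes that rose after cisplatin, such as Ctsd at 609 to 652 TPM against 211 to 240.0 TPM in saline libraries, and the lower row genes that fell, with hypoxia library 4 near the saline libraries in every panel.

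Of the 6 genes of initiation and conjugation, 3 rose and 1 fell. Ulk1, the kinase that starts autophagosome formation, rose from 9.44, 8.46, 9.87 and 8.38 TPM to 12.8, 13.4, 13.7 and 15.1 TPM (0.56 ± 0.13, adjusted p = 0.00143). Atg7, the activating enzyme of both conjugation systems, rose by 0.36 and Wipi1, a phosphoinositide-binding protein of the growing membrane, by 0.21. The Wipi1 call had adjusted p = 0.0434 and was lost without any 1 of cisplatin libraries 2 to 4, calorie restriction libraries 1, 2 and 4 or saline libraries 2 and 4, at adjusted p = 0.0519 to 0.141. Atg5, which is joined to Atg12 in the conjugation complex, was at 11.5, 13.1, 12.8 and 12.8 TPM after saline and 10.3, 9.03, 9.24 and 11.7 TPM after cisplatin (-0.29 ± 0.08, adjusted p = 0.0036). It is the called member whose groups overlapped, since cisplatin library 4 exceeded saline library 1. Becn1, a subunit of the lipid kinase complex, measured 14.1, 13.9, 15.7 and 13.3 TPM and 14.7, 15.3, 15.5 and 15.3 TPM (difference 0.08, 95% interval -0.06 to 0.23). Atg16l1 differed by 0.08 (95% interval -0.04 to 0.20). With the other scaling both genes passed the test as higher.

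Of the 4 LC3 and GABARAP genes none rose and 2 fell. Gabarapl1, the most abundant of them, fell from 244, 246, 252 and 214 TPM to 81.4, 95.1, 93.1 and 75.0 TPM (-1.47 ± 0.26, adjusted p = 0.000256). Gabarap fell from 83.2 to 87.4 TPM to 59.6 to 68.8 TPM. Map1lc3b, which encodes the LC3 protein used as the usual marker of autophagosomes, measured 15.8, 16.6, 17.4 and 15.1 TPM after saline and 13.8, 15.4, 15.7 and 13.3 TPM after cisplatin. Its groups overlapped and the difference was -0.15 (95% interval -0.31 to 0.02, adjusted p = 0.102). Map1lc3a differed by -0.10 (adjusted p = 0.329).

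The cargo receptors and Pink1 gave 2 rises and 2 falls. Sqstm1 (p62), which links ubiquitinated cargo to LC3, rose from 129, 130.0, 126 and 132 TPM to 195, 222, 208 and 199 TPM (0.67 ± 0.12, adjusted p = 0.000271). Optn, a receptor for damaged mitochondria and bacteria, rose from 4.77, 3.71, 4.42 and 4.40 TPM to 7.73, 9.24, 9.62 and 8.74 TPM (0.88 ± 0.12, adjusted p = 5.88e-05). Pink1, the kinase that marks damaged mitochondria for autophagy, fell most of all members. It measured 108, 105, 111 and 106 TPM after saline and 32.2, 32.7, 33.9 and 34.1 TPM after cisplatin (-1.67 ± 0.25, adjusted p = 8.35e-05). The groups of these 3 genes were fully separated. Nbr1, a receptor related to p62, was at 37.7 to 40.8 TPM and 30.8 to 34.3 TPM, a fall whose call was lost with the other scaling.

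Of 27 lysosome members 8 rose and 13 fell after cisplatin (77.8% called), with a median log2 difference of -0.19 and a median size, signs aside, of 0.64. Of 14 autophagy members 5 rose and 5 fell (71.4%), with a median of -0.01 and a median size of 0.33. Over all tested genes 66.8% were called and the median size was 0.40. The further genes of the pathway that were tested had nearly equal median sizes, 0.28 for 49 lysosome genes and 0.28 for 43 autophagy genes. No test of the difference between both groups was made. Because rises and falls offset each other, the mean level of a group hid them. The mean of the 27 lysosome genes lay 0.06 below saline on the log2 scale after cisplatin (SD 0.03, n = 4) and that of the 14 autophagy genes 0.11 below (SD 0.04). The lysosome mean includes Smpdl3b, whose difference of 3.68 was fixed by the filter and raises it. A mean without Smpdl3b was not computed. The lysosome mean minus the autophagy mean was 0.05 ± 0.05 after cisplatin, -0.02 ± 0.05 after calorie restriction plus cisplatin and 0.09 ± 0.10 after hypoxia plus cisplatin (SD, n = 4 each), against a spread of 0.05 within the saline group. The first of these is no larger than that spread, and neither is the second. Among hypoxia libraries the difference was 0.18, 0.06, 0.14 and -0.04, and without library 4 its mean was 0.13 ± 0.07 (SD, n = 3). Each of these differences includes Smpdl3b in the lysosome mean. That gene differed from saline by 2.65 after hypoxia plus cisplatin, and by 3.53 without library 4. The differences were not computed without Smpdl3b, so no reading of lysosome against autophagy is drawn from them.

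**Figure D3:**
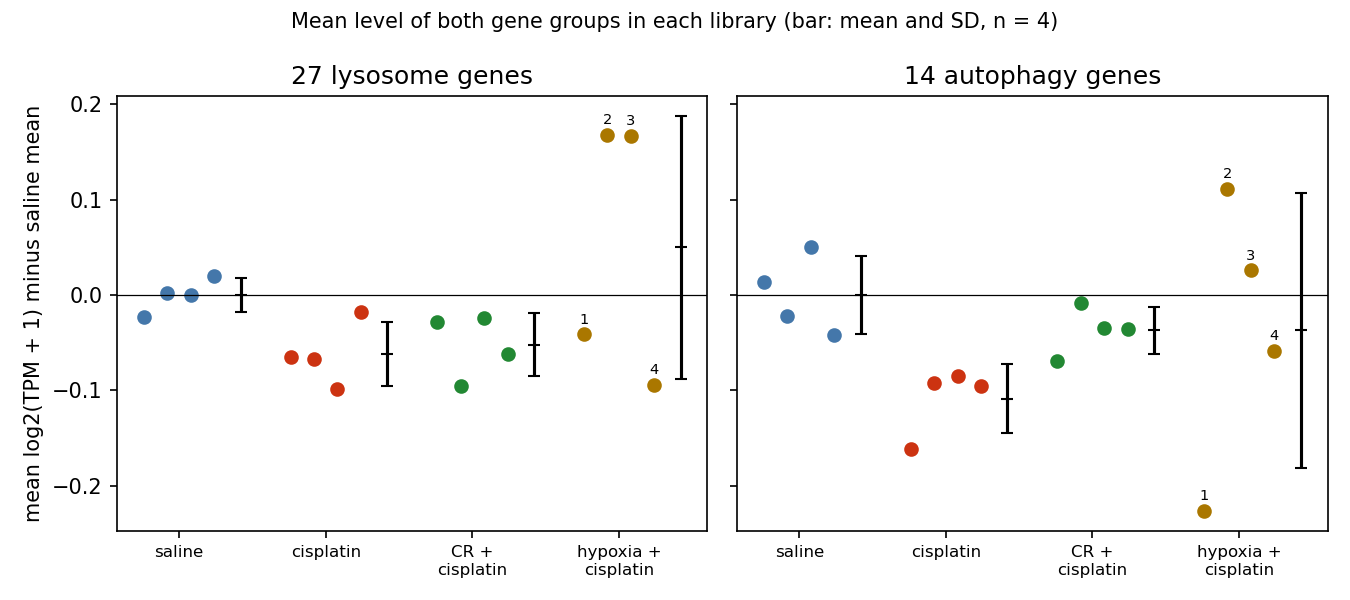
Mean log2(TPM + 1) of the 27 lysosome genes and of the 14 autophagy genes in each library, relative to the saline mean; points are libraries, bars the group mean and SD (n = 4), and hypoxia libraries are numbered. All means lie within about 0.2 of saline, the lowest being hypoxia library 1 for autophagy at -0.23. The lysosome means include Smpdl3b, which passed the filter only through cisplatin-treated libraries.

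With calorie restriction before cisplatin, member levels differed from those after cisplatin alone and no difference from saline was called. Against saline no member passed the test, where 0.0533% of all tested genes (8 of 15014) did, and no member had an unadjusted p under 0.05. Log2 differences of the members ran from -0.37 for Ctss to 0.17 for Mitf. The same held without the calorie restriction library of the first title prefix, where 0 members were called. Against cisplatin alone 33 members passed, 19 higher and 14 lower, where 67.3% of all tested genes did (29.8% higher, 37.4% lower). With the other scaling, which moved the median of all genes by -0.16 here, the split turned to 16 higher and 17 lower, again without shares over all genes. With the title prefix as a term 27 of the 33 calls held, where 42.1% of all tested genes passed. These 2 comparisons and that of cisplatin with saline share groups, so they are set side by side and not counted as separate evidence. Ctsd stood at 232, 205, 242 and 243 TPM in the calorie restriction libraries, Glb1 at 76.7, 82.6, 78.7 and 78.5 TPM and Pink1 at 93.7, 102, 105 and 91.5 TPM. None of these values lay within the range of the cisplatin libraries. Smpdl3b was at 0.493, 0.295, 0.437 and 0.438 TPM, Sqstm1 at 123, 125, 119.8 and 127 TPM and Gabarapl1 at 218, 209, 202 and 251 TPM. Smpdl3b lay below the filter of 1 TPM in every saline and calorie restriction library, so its level is given as a description. Against cisplatin alone the log2 differences of Sqstm1 and Gabarapl1 were -0.73 and 1.34. The same was seen for the regulators, Tfe3 at 2.43, 2.61, 2.68 and 2.58 TPM and Mitf at 4.51, 4.30, 4.24 and 4.00 TPM, and for the membrane genes Lamp1 at 407, 390.2, 415 and 417 TPM and Cd63 at 194, 207, 207 and 190.1 TPM. Lamp1, Ctsl, Gaa and Pink1 were slightly below every saline library in all 4 calorie restriction libraries, without passing the test. Their log2 differences from saline were -0.11, -0.15, -0.16 and -0.14 in that order. In that comparison 2.73% of all tested genes were lower without overlap.

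Hypoxia before cisplatin gave libraries that ranged from the cisplatin pattern to the saline pattern. Against cisplatin alone 18 members passed the test, 14 higher and 4 lower, where 29.4% of all tested genes did (16.4% higher, 13.1% lower). With the other scaling, which moved the median of all genes by -0.12 in this comparison, the split became 9 higher and 11 lower. Shares over all genes with that scaling are not given. Against saline 19 members passed, 10 higher and 9 lower, where 29.3% of all tested genes did (19.2% higher, 10.1% lower). Neither count was stable. Fitting only the 2 groups compared left 0 members called in either comparison, where 0.00% of all tested genes passed against cisplatin alone and 0.0733% against saline. Without hypoxia library 4 the counts were 14 against cisplatin alone (19.3% of all tested genes) and 27 against saline (51.5%). Without library 1 they were 26 (47.7%) and 8 (12.8%). Without library 3 they were 17 (26.8%) and 0 (4.64%), and without library 2 they were 10 (14.8%) and 15 (27.6%). Leaving out cisplatin library 2 or 3 gave 10 calls each against cisplatin alone (17.5% and 15.6% of all tested genes). Leaving out 1 of saline libraries 1 to 4 gave 8, 6, 8 and 8 calls against saline (17.1%, 14.2%, 17.0% and 15.8%). With the title prefix as a term no member differed between hypoxia and cisplatin alone (0.00%) and 13 between hypoxia and saline (24.3%).

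For the 33 members that cisplatin alone moved, each hypoxia library was placed between the saline mean (position 0) and the cisplatin mean (position 1) on the log2 scale. Positions use the deposited TPM and were not computed with the other scaling, which can move raised and lowered members in opposite senses. The median position was 0.97 in library 1, 0.35 in library 2, 0.62 in library 3 and 0.01 in library 4. In the calorie restriction libraries it lay between -0.04 and 0.05. It was -0.04 in calorie restriction library 1, which carries the title prefix of the cisplatin-alone libraries, with 0 of 33 members nearer to cisplatin than to saline. Hypoxia library 1 thus resembled cisplatin alone, hypoxia library 4 resembled saline, and hypoxia libraries 2 and 3 were mixed. Within these mixed libraries the members that cisplatin raised stayed nearer to the cisplatin level than those it lowered. In library 2 the median position was 0.72 for the 14 raised members and 0.17 for the 19 lowered ones, with 11 of 14 and 2 of 19 nearer to cisplatin than to saline. In library 3 the medians were 1.02 and 0.46, with 14 of 14 and 8 of 19 nearer to cisplatin. All genes called after cisplatin showed the same order with a smaller gap in both libraries, at 0.50 for 5710 raised and 0.23 for 4322 lowered genes in library 2 and at 0.73 and 0.50 in library 3. In library 2 the medians of raised and lowered genes were 0.75 and 0.17 for lysosome members and 0.69 and 0.06 for autophagy members. In library 3 they were 1.06 and 0.40 for lysosome members and closer together, at 0.76 and 0.62, for autophagy members. In library 1 they were 1.01 and 0.91 for lysosome members and 0.58 and 1.06 for autophagy members. Each autophagy value rests on 5 genes, and no test was made.

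**Figure D4:**
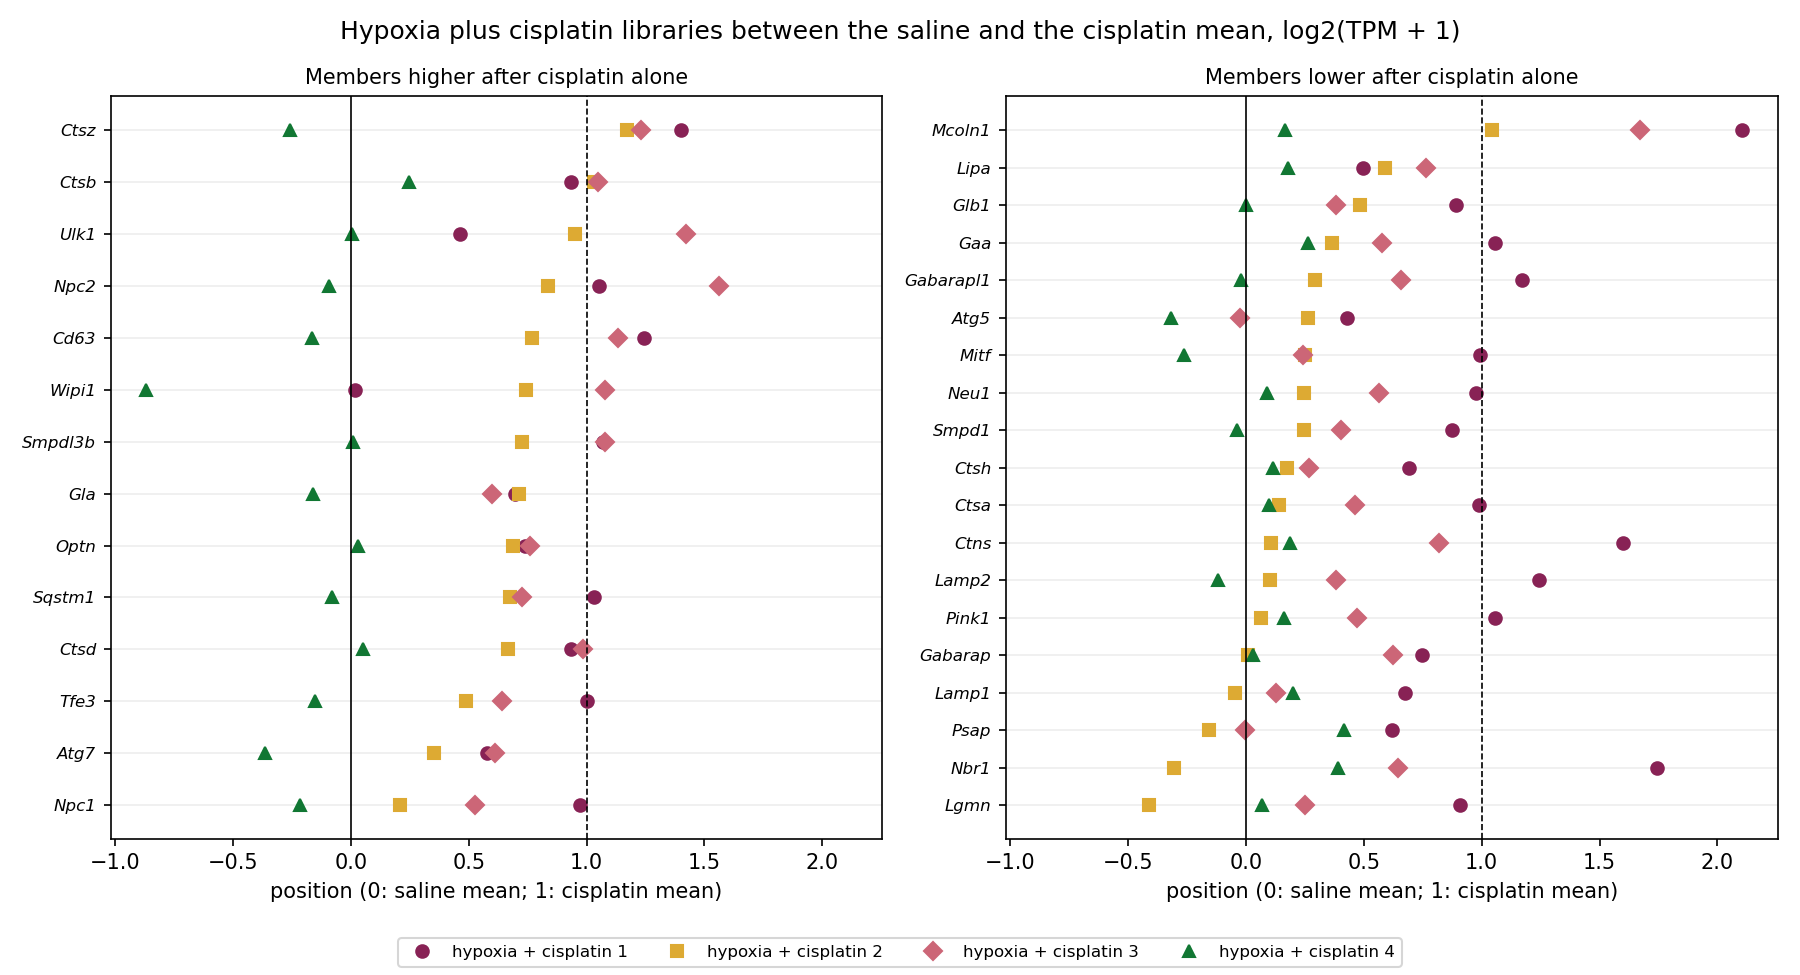
Position of each hypoxia plus cisplatin library between the saline mean (0, solid line) and the cisplatin mean (1, dashed line) on the log2(TPM + 1) scale, for the 14 members raised (left) and the 19 lowered (right) by cisplatin alone, ordered by library 2. Triangles of library 4 lie near 0 for nearly all genes, circles of library 1 mostly near 1, and squares of library 2 mostly above 0.5 on the left and below 0.5 on the right.

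Single genes did not all follow the order of the medians. In hypoxia libraries 1 to 4, Ctsd measured 584, 447, 616 and 239.9 TPM, Smpdl3b 21.5, 8.35, 22.1 and 0.494 TPM and Ctsb 135, 139, 139 and 109.9 TPM. In all 3, libraries 1 to 3 were well above the saline range and library 4 was inside or just above it. The Ctsb level exceeded saline in every hypoxia library (log2 difference 0.34, adjusted p = 0.0141), and Ctsd differed from saline by 0.96 (adjusted p = 0.0129). Without library 4 these were 0.42 for Ctsb (adjusted p = 7.18e-05) and 1.25 for Ctsd (adjusted p = 1.12e-06). Without library 3 both calls were lost, at adjusted p = 0.0553 for Ctsb and 0.0503 for Ctsd. Pink1 measured 31.1, 100.3, 62.1 and 89.4 TPM, with library 1 at the cisplatin level and library 2 just below the saline range of 105 to 111 TPM. Glb1 measured 29.4, 45.1, 50.2 and 74.9 TPM and Neu1 44.8, 85.7, 64.6 and 98.6 TPM. Lamp1, at 337, 448, 419 and 406 TPM, was above every cisplatin library in all 4 (log2 difference 0.43 from cisplatin alone, adjusted p = 0.00706, and 0.42 without library 4, adjusted p = 0.0109). Among other lowered members, Ctsa was at 25.3, 48.2, 37.8 and 49.9 TPM, Lipa at 67.4, 62.7, 55.0 and 85.6 TPM and Gabarapl1 at 71.9, 177, 122 and 244 TPM. Lipa was above cisplatin and below saline in every hypoxia library.

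Of the raised autophagy members, Sqstm1 measured 209, 177, 181 and 124 TPM, Ulk1 11.0, 13.4, 16.3 and 9.03 TPM and Optn 7.36, 7.10, 7.46 and 4.42 TPM. Sqstm1 and Ulk1 differed from saline by 0.39 (adjusted p = 0.0293) and 0.39 (adjusted p = 0.0338). Without library 4 the differences were 0.54 (adjusted p = 3.99e-05) and 0.53 (adjusted p = 0.000845). The Sqstm1 call was lost on leaving out any 1 of 7 libraries, at adjusted p = 0.0518 to 0.088. The Ulk1 call was lost on leaving out any 1 of 5, at adjusted p = 0.0568 to 0.103. Both calls were also lost without a filter, with only the 2 groups compared and with the second title prefix alone. Neither was called against cisplatin alone, with differences of -0.28 and -0.16. Map1lc3b and Becn1, which cisplatin had not been found to change, measured 12.7, 16.8, 14.6 and 14.6 TPM and 14.3, 14.5, 15.7 and 12.6 TPM. Neither passed a test in any of the 5 comparisons. The regulators measured 4.28, 3.29, 3.56 and 2.31 TPM for Tfe3, 2.38, 3.30, 3.31 and 4.08 TPM for Mitf and 5.49, 5.64, 5.91 and 5.44 TPM for Tfeb. Tfeb stayed at 5.44 TPM or above in all 4 and was not called in any comparison. Cd63 at 390.5, 305, 368 and 189 TPM, Npc1 at 7.35, 4.31, 5.42 and 3.13 TPM and Gla at 3.46, 3.52, 3.14 and 1.34 TPM were below every saline library in library 4 and above every saline library in libraries 1 to 3. The position of a library followed its summed proximal tubule markers, which were lowest in library 1 and highest in library 4. Whether those cells carry the members' shift was not tested.

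Other genes of the pathway, from lists that do not contain the members, were called in both directions. Their total share called was near that of all tested genes, while the shares by direction were not. Of 49 further lysosome genes tested, 11 rose and 20 fell after cisplatin (63.3% called, against 66.8% of all tested genes, median log2 difference -0.11). By direction 22.4% were higher and 40.8% lower, against 38.0% and 28.8% of all tested genes. Hydrolases among the falls were the arylsulfatase Arsb (log2 difference -1.71), the mannosidase Man2b1 (-1.39) and the cysteine protease Ctsf (-1.09). The largest rises were Hgsnat, which acetylates heparan sulfate (1.04), Scarb2, the receptor that carries glucocerebrosidase to lysosomes (0.98), the mannose 6-phosphate receptor Igf2r (0.59) and the channel Tpcn2 (0.54). Of 43 further autophagy genes tested, 11 rose and 16 fell (62.8% called, 25.6% higher and 37.2% lower, median -0.01). Vmp1, a membrane protein needed for autophagosome formation, rose from 20.6 to 26.7 TPM to 91.0 to 109 TPM (2.08). Atg9b, a lipid scramblase of the autophagosome, was at 0.0186 to 0.0729 TPM after saline and 5.25 to 6.08 TPM after cisplatin and passed the filter only through cisplatin-treated groups. The protease Atg4a (1.54) and the tethering factor Tecpr1 (0.79) were also higher. Atg10, an E2-like enzyme that conjugates Atg12, fell from 4.60 to 5.96 TPM to 0.615 to 2.02 TPM (-1.64). Park2, the ubiquitin ligase that acts with Pink1, was at 1.97 to 2.26 TPM after saline and 0.267 to 0.404 TPM after cisplatin. Park2 passed the filter only through groups other than cisplatin alone, so its difference is given as a description. The counts above include Park2 and Atg9b. The mitophagy receptor Bnip3 (-0.69) and the protease Atg4d (-0.65) were lower as well. After calorie restriction plus cisplatin no gene of either list was called against saline, and 2 lysosome genes and 0 autophagy genes had an unadjusted p under 0.05.

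A further pair of lists concerns the lysosomal surface. The proton pump that acidifies lysosomes, the V-ATPase, is also the pump by which intercalated cells of the collecting duct secrete acid. Of its 21 tested subunits and accessory proteins 2 rose and 15 fell after cisplatin (81.0% called, median -0.29). No result with the other scaling, which moved the median of all genes by 0.16 in that comparison, or with the prefix term is given for this list. Over all tested genes 66.8% were called, 38.0% higher and 28.8% lower. After calorie restriction plus cisplatin 17 of the 21 were higher and 2 lower than after cisplatin alone (90.5% called). In that comparison 67.3% of all tested genes were called, 29.8% higher and 37.4% lower. Atp6v1b1, a subunit of the intercalated cell form, fell from 33.5 to 36.9 TPM to 8.78 to 19.4 TPM (-1.42), and the broadly expressed Atp6v1a from 81.8 to 88.1 TPM to 50.4 to 58.4 TPM (-0.66). Atp6v0a1 rose from 8.38 to 10.3 TPM to 22.6 to 28.4 TPM (1.33). These 3 subunits were chosen after their values were seen. Of 19 tested genes of the mTORC1 complex and its anchor on the lysosome 4 rose and 9 fell after cisplatin (median -0.16). The share called, 68.4%, was near the 66.8% of all tested genes.

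Some members share sequence with annotated neighbours, and the sources used here do not say whether reads were counted by strand. In GENCODE M21, 32.4% of the 50-base stretches of Ctsd transcripts also occur in Gm49369, an overlapping gene on the same strand. For Becn1 the share was 36.8% (mostly Cntd1, at 0.56 TPM on average) and for Gabarapl1 23.1%, with 1700101I11Rik on the opposite strand at 1.14 TPM. For Ctsl it was 26.3%, with Gm49230 on the same strand and Gm47123 on the opposite strand. For Sqstm1 it was 15.5%, with Mrnip on the opposite strand. No level was listed for Gm49369, Gm49230, Gm47123 or Mrnip. Map1lc3b overlaps Zcchc14 on the opposite strand, at 13.0 TPM against 15.2 TPM for Map1lc3b itself, so the level of Map1lc3b is uncertain. Glb1 shares exons with Tmppe, at 6.99 TPM against 57.5 TPM for Glb1.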

How the data were processed

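RNA of perfused kidneys, cleared of ribosomal RNA, was measured in 16 libraries of 4 groups. The authors deposited 1 table of TPM per gene and library, whose values sum to 1000000 in each. STAR 2.5, featureCounts, Subread 1.5 and the builds mm10 and GRCm38 are named in the submitters' processing notes. Counting by strand is not given in the sources used here. Of the 46078 genes listed, 13880 were listed at 0 throughout.

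Values were transformed to log2(TPM + 1). A gene was tested where 4 or more libraries reached 1 TPM, which 15014 genes did. The model was limma 3.58.1 (R 4.3.3, statmod 1.5.0) over the 16 libraries, with a trended, robust prior and no term besides group, checked on simulated data. Tests are 2-sided with Benjamini-Hochberg adjustment over all tested genes within a comparison and a threshold of 0.05. Errors of fold changes are limma standard errors. The 5 comparisons set each cisplatin group against saline and each preconditioned group against cisplatin alone, so they share groups.

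Depth was read from the low values: with GENCODE M21 exon lengths, 73.2 to 74.2% of genes came out as whole reads within 0.001 reads, giving 54194365 to 69010084 reads per library. Promoter windows are RefSeq's, on GRCm38.p6. The labels number no replicates, so numbers were given in accession order. Per-library values were given for a chosen list of members and for the largest called rise and fall of each role. The members and lists were chosen with earlier results of these data known. Alternatives were another pseudocount (0.1), no filter, a filter of 5 TPM, another scaling, other fits and leaving out each library. A fit of the second title prefix alone was added after the data were seen.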

Additional observations from a re-analysis of the deposited data

Results flagged for a closer look

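In 10 of 176 groups of 4 libraries 1 member's library stood apart, with a gap to the nearest other library, as a share of the group's range, above Dixon's 95% critical value. Chance alone sets apart about 5%, or 8.8 groups, which is near that number. The gap was 0.837 of the range for Cd63 in cisplatin library 1 (373 TPM, others 331 to 337). It was 0.973 for Mcoln1 in saline library 2 (12.8 TPM, others 12.2), 0.926 for Ctsa in saline library 1 (51.1 TPM, others 54.4 to 54.7) and 0.927 for Npc2 in saline library 1 (22.4 TPM, others 21.3 to 21.4). Gusb in saline library 4 was at 13.6 TPM beside 6.27 to 6.67 TPM (gap 0.945). In calorie restriction library 3 the gap was 0.868 for Ctsa (59.1 TPM, others 51.0 to 52.0) and 0.854 for Gabarap (89.4 TPM, others 84.8 to 85.5). Hypoxia library 2 stood apart for Atg16l1 (5.07 TPM, others 4.79 to 4.82, gap 0.885). Hypoxia library 4 stood apart for Ctsb (109.9 TPM, others 135 to 139, gap 0.846) and for Optn (4.42 TPM, others 7.10 to 7.46, gap 0.879).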

How the results depend on the processing

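No member called in a comparison changed direction under any alternative run. After cisplatin against saline, 31 to 33 members were called when 1 of the 16 libraries was left out, and 15 with the title prefix as a term. Calorie restriction against cisplatin alone gave 31 to 34 calls when 1 library was left out, and against saline 0 under every alternative. Hypoxia counts depended on the fit. Against cisplatin alone, 18 calls became 0 with only the 2 groups compared, 0 with the prefix term and 32 with library weights, and 10 to 26 when 1 library was left out. Against saline, 19 became 7 without a filter, 0 with only the 2 groups compared, 0 with the second prefix alone (chosen after seeing the data) and 36 with library weights, and 0 to 27 when 1 library was left out. The share of all tested genes called is not given for library weights, for no filter or for the second prefix alone. Changes in those counts therefore cannot be told apart from changes over all genes. The cause of these shifts was not tested. The fit of 2 groups kept all 33 calls of cisplatin against saline and all 33 of calorie restriction against cisplatin alone. Requiring TCACGTGA lowered the share of members with a motif from 32.4% to 10.8%. No paired analysis was possible because the labels number no replicates. With a filter at 5 TPM, 30 of the 33 members called after cisplatin were still tested, and these 30 passed.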
